A study of Mus musculus with 10 samples.

Results

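The genes described here are 34 named members of the ATF4 stress response and of amino acid supply, out of 53465 genes in the count files of mouse CD8 T cells held in low glucose. They were taken by gene symbol, without a threshold on the counts, and fall into 12 stress regulators and other ATF4 targets, 11 enzymes of amino acid synthesis and one-carbon metabolism, 6 amino acid transporters and 5 enzymes that charge tRNA. Counts were high enough to test 33 of the 34. Cbs, which encodes the first enzyme of the pathway from homocysteine to cysteine, had 26 counts over the 10 libraries and 0 to 6 in any of them, so it was left out of every test.

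ATF4 is a transcription factor that cells make when a kinase phosphorylates the translation initiation factor eIF2, as happens under amino acid shortage or stress of the endoplasmic reticulum. Its own mRNA is then translated more efficiently while most translation slows, so the level of Atf4 mRNA is not a measure of the protein. ATF4 raises genes for amino acid import, amino acid synthesis and tRNA charging, together with genes that limit or end the stress response, and activated T cells need many of the same genes for growth.

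All cells were CD8 T cells from spleens and peripheral lymph nodes of C57BL/6 mice carrying OT-I, a transgenic T cell receptor that recognises an ovalbumin peptide. Activation with that peptide and interleukin-2 took place at 25 mM glucose, and after 3 days the medium was changed to one with 1 mM glucose. The d9 acetate group (n = 3) spent 120 h in 1 mM glucose with 5 mM sodium acetate for the last day, and the d9 group (n = 3) spent the same time without acetate. The d5 acetate group (n = 2) spent 24 h in 1 mM glucose with acetate throughout, and the d5 group (n = 2) spent 24 h without it. Every group was restimulated for 4 h with phorbol ester (PMA) and ionomycin before polyadenylated RNA was taken. The labels do not explain how 3 days plus 1 or 5 days of restriction give the names d5 and d9. A culture kept in 25 mM glucose was not analysed here, so each comparison is between restricted cells. In the comparison of d9 with d5, the length of restriction and the time since activation cannot be told apart. Whether replicates came from separate cultures or mice is not stated in the labels, and p-values then measure only the spread between these libraries, which may be technical.

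The motif through which ATF4 is best known to act, as a dimer with a C/EBP protein, has the core TGATGNAAN (NTTNCATCA on the other strand). It was searched on both strands in RefSeq promoters of GRCm38.p6, from 250 bases before to 50 after the gene start, which held 29 of the 34 genes in 33 windows. Of these 29 genes 9 (31.0%) held a match, which were Aars, Asns, Chac1, Gars, Nupr1, Pycr1, Slc7a11, Trib3 and Vldlr, against 4.5% of all 27025 genes in the table. The stricter form TGATGCAAT (ATTGCATCA on the other strand), each match of which is also a match of the first motif, was in Aars, Nupr1 and Pycr1 (10.3%), against 0.222% of all genes. The 34 genes were listed as members of the ATF4 response and of amino acid supply. An excess of this motif over all genes therefore follows in part from that choice and is no separate result. Nars, Wars, Slc1a5, Slc7a5 and Cth were not matched to the table. The 4 sequences shown belong to genes with a match that passed the test in the most comparisons described below, with ties settled by the smaller p. Each runs 5′ to 3′ over the 250 bases before the RefSeq start, with the motif in capitals.
Chac1: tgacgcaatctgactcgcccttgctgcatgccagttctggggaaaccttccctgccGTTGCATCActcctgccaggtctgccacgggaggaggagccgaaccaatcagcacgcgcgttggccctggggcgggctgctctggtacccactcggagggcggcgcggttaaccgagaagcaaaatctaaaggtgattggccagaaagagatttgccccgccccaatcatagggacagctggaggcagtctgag
Aars: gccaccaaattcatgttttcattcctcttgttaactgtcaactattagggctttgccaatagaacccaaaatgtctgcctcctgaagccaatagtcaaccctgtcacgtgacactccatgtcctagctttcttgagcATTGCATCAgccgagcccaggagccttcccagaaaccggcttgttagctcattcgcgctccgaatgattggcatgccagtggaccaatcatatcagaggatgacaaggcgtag
Asns: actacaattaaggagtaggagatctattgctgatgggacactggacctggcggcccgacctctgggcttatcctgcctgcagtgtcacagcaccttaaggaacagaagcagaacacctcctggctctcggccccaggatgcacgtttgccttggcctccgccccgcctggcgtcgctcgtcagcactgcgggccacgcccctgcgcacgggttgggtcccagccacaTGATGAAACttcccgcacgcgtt
Pycr1: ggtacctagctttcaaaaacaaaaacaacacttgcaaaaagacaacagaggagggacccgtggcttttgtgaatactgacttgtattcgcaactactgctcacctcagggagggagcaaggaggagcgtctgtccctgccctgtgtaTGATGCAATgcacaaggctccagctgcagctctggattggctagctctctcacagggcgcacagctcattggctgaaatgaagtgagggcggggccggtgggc
The Chac1 window is chr2:119350992-119351241 on the plus strand and the Aars window chr8:111033592-111033841 on the plus strand. The Asns window is chr6:7693210-7693459 on the minus strand and the Pycr1 window chr11:120643749-120643998 on the minus strand. The printed match begins at position -194 in Chac1, -113 in Aars, -23 in Asns and -103 in Pycr1, counted from the RefSeq start. Aars holds a second match, TTTTCATCA, at position 9 after the start, beyond the printed bases. In the GENCODE annotation these 4 genes begin upstream of that start. All 9 bases of the printed match lie in an annotated exon of the gene in Aars and Asns, and 0 of 9 in Chac1 and Pycr1. A match describes these letters and not binding.

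Levels are given as CPM, the share of a library's counts on a gene, scaled by TMM factors. The libraries held 16.59 to 24.66 M counts. Marker genes of CD8 T cells were abundant throughout, with a sum over 8 genes of 2410 to 3660 CPM. The sums were at most 5.15 CPM for 6 B cell markers, 12.4 CPM for 6 monocyte and macrophage markers, 11.5 CPM for 3 CD4 T cell markers and 3.53 CPM for 4 dendritic cell markers, while 2 of 3 erythroid markers were at 0 in every library. The sum over 4 NK cell markers was 38.5 to 58.8 CPM at d9, against 6.43 to 9.83 CPM at d5, of which Eomes and Klrb1c made up most and Ncr1 was at 0.263 CPM or less. Activated CD8 T cells can also express Eomes and Klrb1c. Of the 6 libraries at d9, replicate 1 of the d9 group and replicate 2 of the d9 acetate group stood apart from the other 4. Ribosomal protein genes took 15.3% and 14.9% of their counts, against 11.0 to 12.6% in the other 4 d9 libraries and 10.6 to 13.8% at d5. Results are therefore also given without these 2 libraries. They were picked from these same data, and leaving them out leaves 2 libraries in each d9 group. The p-values of that fit follow this choice and are no separate support. In bulk RNA fewer cells making a transcript and less of it per cell cannot be told apart.

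Per kilobase of exon, averaged over the 10 libraries, Atf4 had the highest level of the 34 genes at 547 CPM per kb. Slc7a5 followed at 502, Phgdh at 425, Shmt2 at 319 and Slc3a2 at 299.9 CPM per kb. At the other end Vldlr stood at 0.676 and Slc7a11 at 0.669 CPM per kb, and Cbs at 0.0161 CPM per kb.

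**Figure D1:**
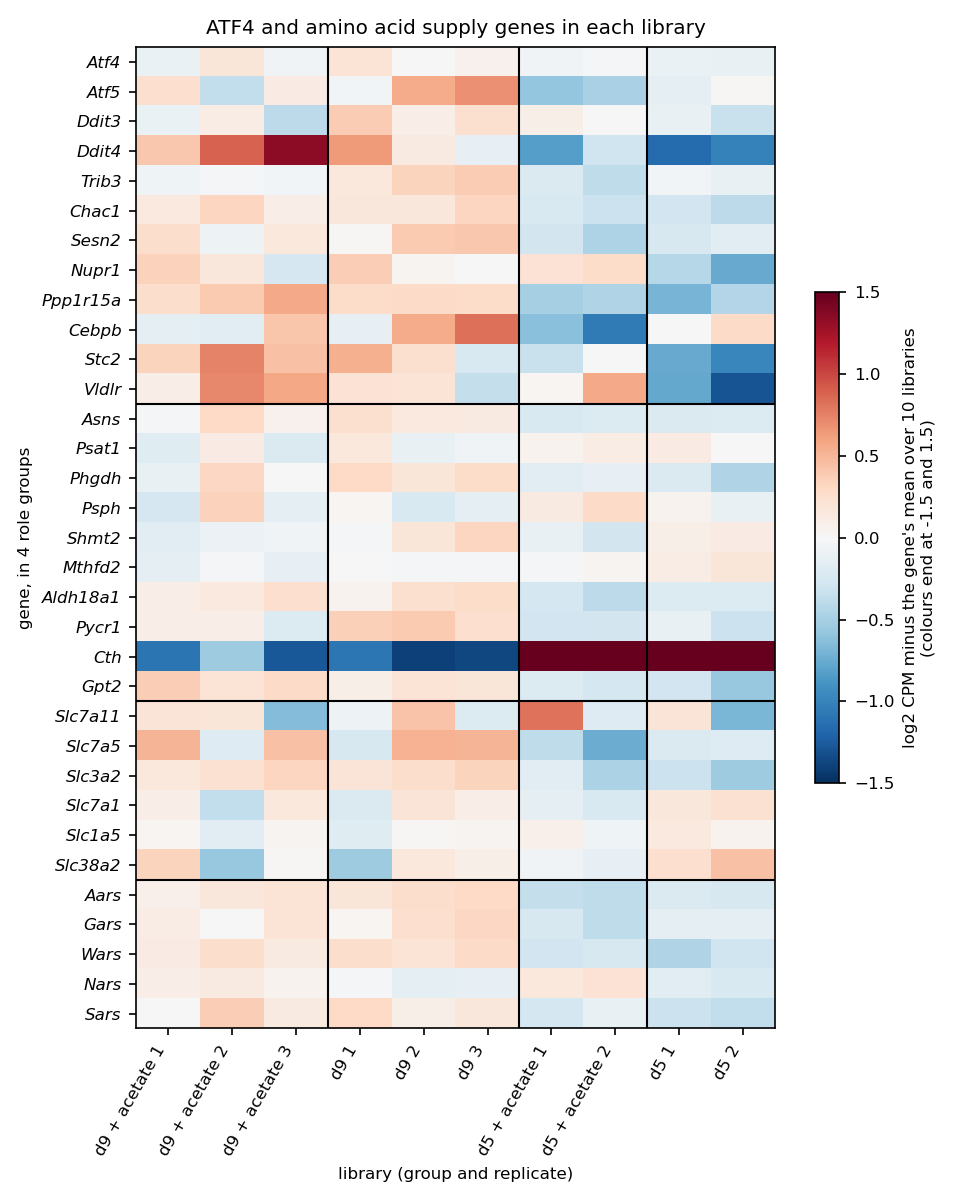
Each row is 1 of the 33 tested genes in 4 role groups and each column 1 library. Colour is log2 CPM minus the mean of that gene over the 10 libraries, red above and blue below. The d9 libraries on the left are red for most stress and tRNA charging genes, and Cth is the 1 gene that is dark blue at d9 and dark red at d5.

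Many of the listed stress, amino acid synthesis and tRNA charging genes were higher after 120 h than after 24 h of restriction, and 1 enzyme gene, Cth, was lower by far. In cells without acetate 18 of 33 genes (54.5%) rose at d9 against d5 and Cth fell, by the edgeR quasi-likelihood test at a Benjamini-Hochberg adjusted p of 0.05 over all genes. Of all 13182 tested genes 15.9% rose and 21.2% fell in the same comparison. In cells with acetate 14 of 33 (42.4%) rose and Cth fell, against 18.5% of all genes that rose and 23.1% that fell. The median log2 change of the 33 genes was 0.46 without acetate and 0.29 with it, against -0.01 over all genes in each. The d9 and d5 libraries did not overlap, with every d9 value the higher, for 21 of the 33 genes without acetate (63.6%) and 19 with it (57.6%), against 29.7% and 29.1% of all tested genes.

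The 2 comparisons of d9 with d5 share no library, although they share the estimate of each gene's spread. The 11 genes that rose in both were Aars, Aldh18a1, Asns, Chac1, Ddit4, Gpt2, Ppp1r15a, Sesn2, Slc3a2, Stc2 and Wars, which is 33.3% of the 33 genes, against 11.4% of all tested genes. Of the 33 genes 27 changed with the same sign in both, 22 positive and 5 negative. The share of all tested genes with the same sign in both was not counted, so the 27 cannot be set against a background. A further 7 genes (21.2%) passed without acetate and not with it, and 3 (9.09%) passed with acetate and not without it. Of all 13182 tested genes 2096 rose without acetate, 2436 with it and 1497 in both, so other genes also passed on 1 side only. The difference between the comparisons passed for none of the 33. Without the 2 d9 libraries that stood apart, 21 genes (63.6%) rose and 1 fell without acetate, against 20.4% of all genes that rose and 25.6% that fell in that fit. With acetate 17 (51.5%) rose and 3 fell, against 25.0% and 26.4% of all genes. With trends of the log2 change with gene length and GC content removed, 12 genes (36.4%) rose without acetate, against 18.1% of all genes. With acetate 6 (18.2%) rose in that fit, which is the background, as 18.5% of all genes rose.

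Markers of CD8 T cells moved in the same comparisons. Without acetate 5 of the 8 (62.5%) rose at d9 against d5, which were Cd247, Cd3d, Cd3g, Cd8a and Cd8b1, genes of the T cell receptor complex and the CD8 co-receptor, and Zap70, which encodes a kinase of receptor signalling, fell. The median log2 change of the 8 was 0.41 without acetate, near that of the 33 genes, and 0.15 with acetate, where Cd247 and Cd8b1 rose. Of the NK cell markers Eomes and Klrb1c rose in both comparisons. Of 2 tested CD4 T cell markers Cd4 rose and Cd40lg fell without acetate, and the B cell marker Cd79b fell with acetate to 0.979 CPM in the d9 acetate group, against 3.29 CPM in the d5 acetate group. The part of these markers in the results was not tested.

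**Figure D2:**
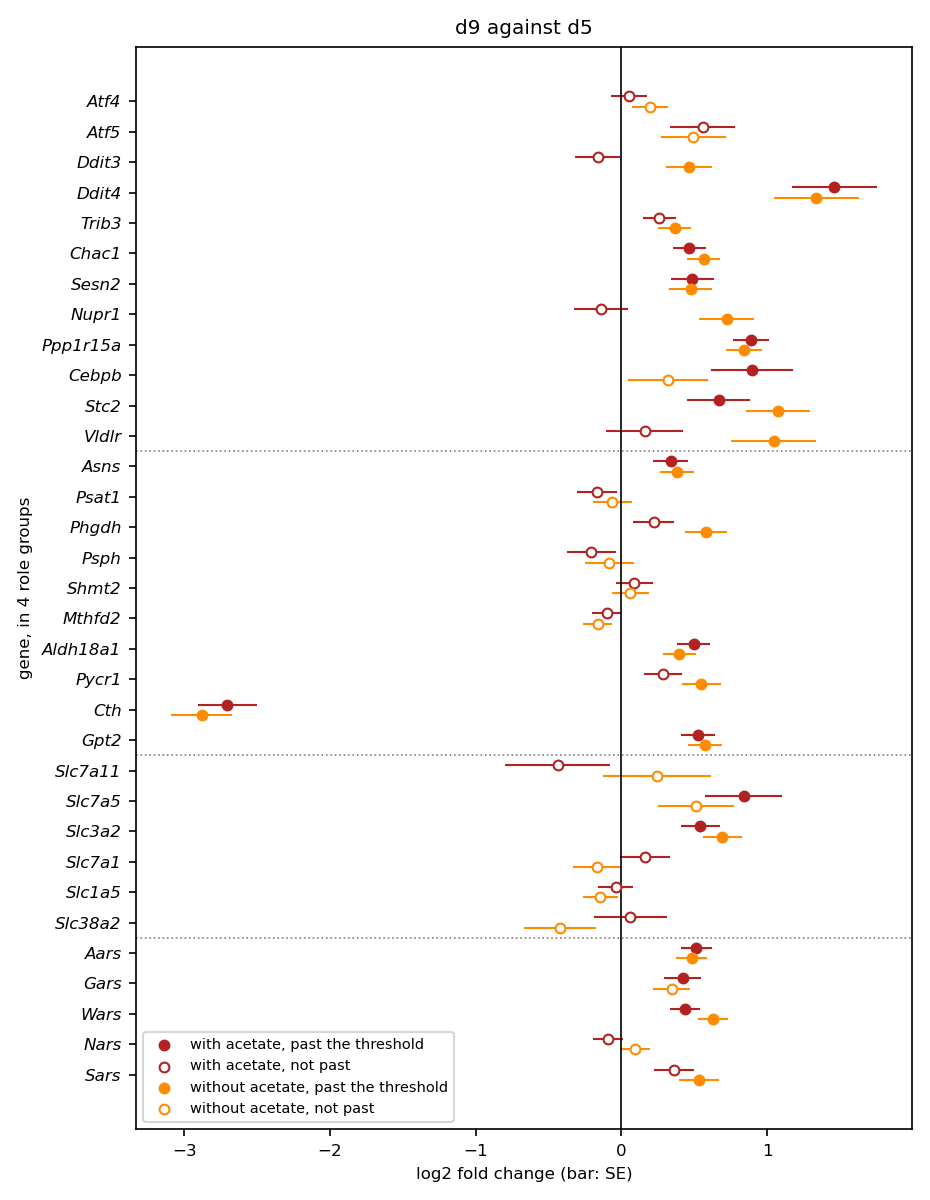
Points are log2 fold changes of d9 against d5 for the 33 tested genes, with bars for the SE. Red points compare cells with acetate and orange points cells without it, and filled points are past an adjusted p of 0.05. Filled points lie right of 0 for every gene except Cth, at -2.70 with acetate and -2.88 without it.

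Among the 12 stress regulators and other ATF4 targets, 9 rose at d9 without acetate and 6 with acetate, and none fell. For comparison, 15.9% of all tested genes rose and 21.2% fell without acetate, and 18.5% rose and 23.1% fell with it. The summed level of the 12 genes was 3863 ± 301 CPM in the d9 acetate group and 3870 ± 181 CPM in the d9 group (SD, n = 3 each), against 2967 ± 44.1 CPM in the d5 acetate group and 2779 ± 23.5 CPM in the d5 group (n = 2 each). Atf4 (ENSMUSG00000042406, chr15:80255184-80257541, plus strand) itself did not pass in any comparison. It held 1197, 1459 and 1237 CPM in the d9 acetate libraries and 1479, 1288 and 1340.5 CPM in the d9 libraries, against 1239 and 1262 CPM in the d5 acetate libraries and 1199 and 1193 CPM in the d5 libraries. Every d9 library lay above both d5 libraries without acetate, while with acetate the groups overlapped. The log2 change of d9 against d5 was 0.19 ± 0.12 (SE; edgeR adjusted p = 0.243) without acetate and 0.05 ± 0.12 (edgeR adjusted p = 0.75) with it.

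Ppp1r15a and Ddit4, which act to limit the response and growth, were among the genes that rose in both comparisons. Ppp1r15a (ENSMUSG00000040435, chr7:45522916-45526268, minus strand) encodes GADD34, the subunit that directs a phosphatase to eIF2. It held 344, 376 and 424 CPM in the d9 acetate libraries and 347, 349 and 345 CPM in the d9 libraries, against 203 and 209 CPM in the d5 acetate libraries and 176 and 211 CPM in the d5 libraries. Every d9 value was above every d5 value. The change was 1.85-fold with acetate (log2 0.89 ± 0.12; edgeR adjusted p = 0.000338) and 1.79-fold without it (log2 0.84 ± 0.12; edgeR adjusted p = 0.000519). Ddit4 (ENSMUSG00000020108, chr10:59949669-59951834, minus strand) encodes REDD1, an inhibitor of the growth kinase complex mTORC1. It held 516, 719 and 986 CPM in the d9 acetate libraries and 605, 428 and 359 CPM in the d9 libraries, against 220.2 and 317 CPM in the d5 acetate libraries and 175 and 192 CPM in the d5 libraries. The libraries of a group differed more for Ddit4 than for Ppp1r15a at d9, but the d9 and d5 groups did not overlap. The change was 2.75-fold with acetate (log2 1.46 ± 0.29; edgeR adjusted p = 0.00282) and 2.53-fold without it (log2 1.34 ± 0.29; edgeR adjusted p = 0.00488).

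Stc2, Chac1 and Sesn2 rose in both comparisons as well. Stc2, which encodes the secreted glycoprotein stanniocalcin 2, held 120.4, 160.4 and 129.7 CPM in the d9 acetate libraries and 139, 113 and 81.3 CPM in the d9 libraries, against 76.2 and 96.1 CPM in the d5 acetate libraries and 56.6 and 48.5 CPM in the d5 libraries. The log2 change was 0.67 ± 0.22 with acetate (edgeR adjusted p = 0.0296) and 1.08 ± 0.22 without it (edgeR adjusted p = 0.00343), and the difference between them did not pass (edgeR adjusted p = 0.72). Chac1, which encodes an enzyme that breaks down glutathione, held 134, 152 and 129.5 CPM in the d9 acetate libraries and 137, 137 and 152 CPM in the d9 libraries, against 103 and 96.9 CPM in the d5 acetate libraries and 99.4 and 92.0 CPM in the d5 libraries. The 6 d9 libraries lay close together and above all 4 at d5, with log2 changes of 0.47 ± 0.11 with acetate (edgeR adjusted p = 0.00804) and 0.57 ± 0.11 without it (edgeR adjusted p = 0.00318). Sesn2, which encodes a leucine sensor that restrains mTORC1, held 251, 199 and 234 CPM in the d9 acetate libraries and 212, 275 and 277 CPM in the d9 libraries, against 173 and 152 CPM in the d5 acetate libraries and 178 and 188 CPM in the d5 libraries. Its lowest d9 values were in the 2 libraries that stood apart, and the log2 changes were 0.49 ± 0.15 with acetate (edgeR adjusted p = 0.023) and 0.48 ± 0.15 without it (edgeR adjusted p = 0.028).

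Ddit3, Trib3, Nupr1 and Vldlr passed without acetate and not with it. Ddit3 (ENSMUSG00000025408, chr10:127290774-127296288, plus strand) encodes CHOP, a transcription factor that promotes death under prolonged stress. It held 401, 467 and 329 CPM in the d9 acetate libraries and 562, 462 and 511 CPM in the d9 libraries, against 459 and 434 CPM in the d5 acetate libraries and 401 and 341 CPM in the d5 libraries. Without acetate the d9 values lay above the d5 values (log2 0.46 ± 0.16; edgeR adjusted p = 0.0397), and with acetate the groups overlapped (log2 -0.16 ± 0.16; edgeR adjusted p = 0.425). Nupr1, which encodes a small stress-induced nuclear protein, held 64.8, 57.1 and 42.8 CPM in the d9 acetate libraries and 65.5, 52.4 and 50.9 CPM in the d9 libraries, against 59.3 and 61.5 CPM in the d5 acetate libraries and 38.0 and 30.2 CPM in the d5 libraries. The d5 libraries without acetate were the lowest of the 10 (log2 0.72 ± 0.19 without acetate, edgeR adjusted p = 0.0128; -0.14 ± 0.18 with it, adjusted p = 0.571). Vldlr, which encodes a lipoprotein receptor, was also lowest in the d5 libraries without acetate, with 6.74, 10.4 and 9.42 CPM in the d9 acetate libraries and 7.30, 7.24 and 4.92 CPM in the d9 libraries, against 6.45 and 9.36 CPM in the d5 acetate libraries and 3.70 and 2.57 CPM in the d5 libraries. Its log2 change was 1.05 ± 0.29 without acetate (edgeR adjusted p = 0.0167) and 0.16 ± 0.26 with it (edgeR adjusted p = 0.646).

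Trib3, which encodes a pseudokinase that ATF4 induces and that dampens its action, held 368, 379.9 and 372 CPM in the d9 acetate libraries and 427, 482 and 501 CPM in the d9 libraries, against 329 and 293 CPM in the d5 acetate libraries and 374 and 355 CPM in the d5 libraries. The d9 libraries were the higher ones in both states of acetate (log2 0.37 ± 0.11 without acetate, edgeR adjusted p = 0.0256; 0.26 ± 0.11 with it, adjusted p = 0.0832). Cebpb, which encodes a dimer partner of ATF4, held 24.1, 23.7 and 35.3 CPM in the d9 acetate libraries and 24.3, 38.8 and 46.8 CPM in the d9 libraries, against 17.1 and 12.7 CPM in the d5 acetate libraries and 26.4 and 32.3 CPM in the d5 libraries. It rose with acetate (log2 0.90 ± 0.28; edgeR adjusted p = 0.0268), where the d5 acetate libraries were the lowest of the 10, and did not pass without it (log2 0.32 ± 0.27; edgeR adjusted p = 0.381). Atf5, a relative of ATF4, averaged 77.0 ± 16.3 CPM in the d9 acetate group and 102 ± 25.1 CPM in the d9 group (SD, n = 3 each), against 52.3 ± 2.56 CPM in the d5 acetate group and 72.3 ± 5.73 CPM in the d5 group (n = 2 each), and did not pass (log2 0.56 ± 0.22 with acetate and 0.49 ± 0.22 without). The lowest Atf5 values at d9, 58.6 and 73.4 CPM, were those of the 2 libraries that stood apart. Without these Atf5 passed in both comparisons (log2 0.72 ± 0.11 with acetate and 0.66 ± 0.11 without, edgeR adjusted p = 0.000257 and 0.000552). Leaving out its lowest d9 values makes the change larger by construction.

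Within this group the calls of Ppp1r15a in both comparisons, of Chac1 and Stc2 without acetate and of Ddit4 with acetate were kept when each of the 10 libraries was left out in turn. Without acetate, leaving out d5 replicate 2 ended the calls of Nupr1 (adjusted p = 0.126) and Vldlr (0.148), and leaving out d5 replicate 1 that of Ddit4 (0.0515). Trib3 and Sesn2 were lost without d5 replicate 1 (edgeR adjusted p = 0.0937 and 0.159), d5 replicate 2 (0.155 and 0.1), d9 replicate 2 (0.0797 and 0.0869) and d9 replicate 3 (0.0849 and 0.086), and Ddit3 without any of 7 libraries, at an adjusted p of 0.0516 to 0.251. The 7 were both of d5, both of d5 acetate, replicates 1 and 3 of d9 and replicate 1 of d9 acetate. With acetate Chac1 was lost without d5 acetate replicate 2 (adjusted p = 0.0733), and Stc2 without d5 acetate replicate 1 (0.196) or d9 acetate replicate 2 (0.06). Cebpb was lost without d5 acetate replicates 1 or 2 (0.0522 and 0.179) or d9 acetate replicate 3 (0.0868), and Sesn2 without d5 acetate replicates 1 or 2 (0.0592 and 0.16) or d9 acetate replicates 1 or 3 (0.0641 and 0.057). With trends of gene length and GC content removed Trib3 (adjusted p = 0.201) and Sesn2 (0.175) did not pass without acetate, nor Sesn2 (0.523) and Stc2 (0.0727) with it. Exons of Ddit3, Atf5, Cebpb and Ppp1r15a overlap genes on the opposite strand by 12 to 312 bases, and whether reads were counted by strand is not stated in the sources at hand.

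**Figure D3:**
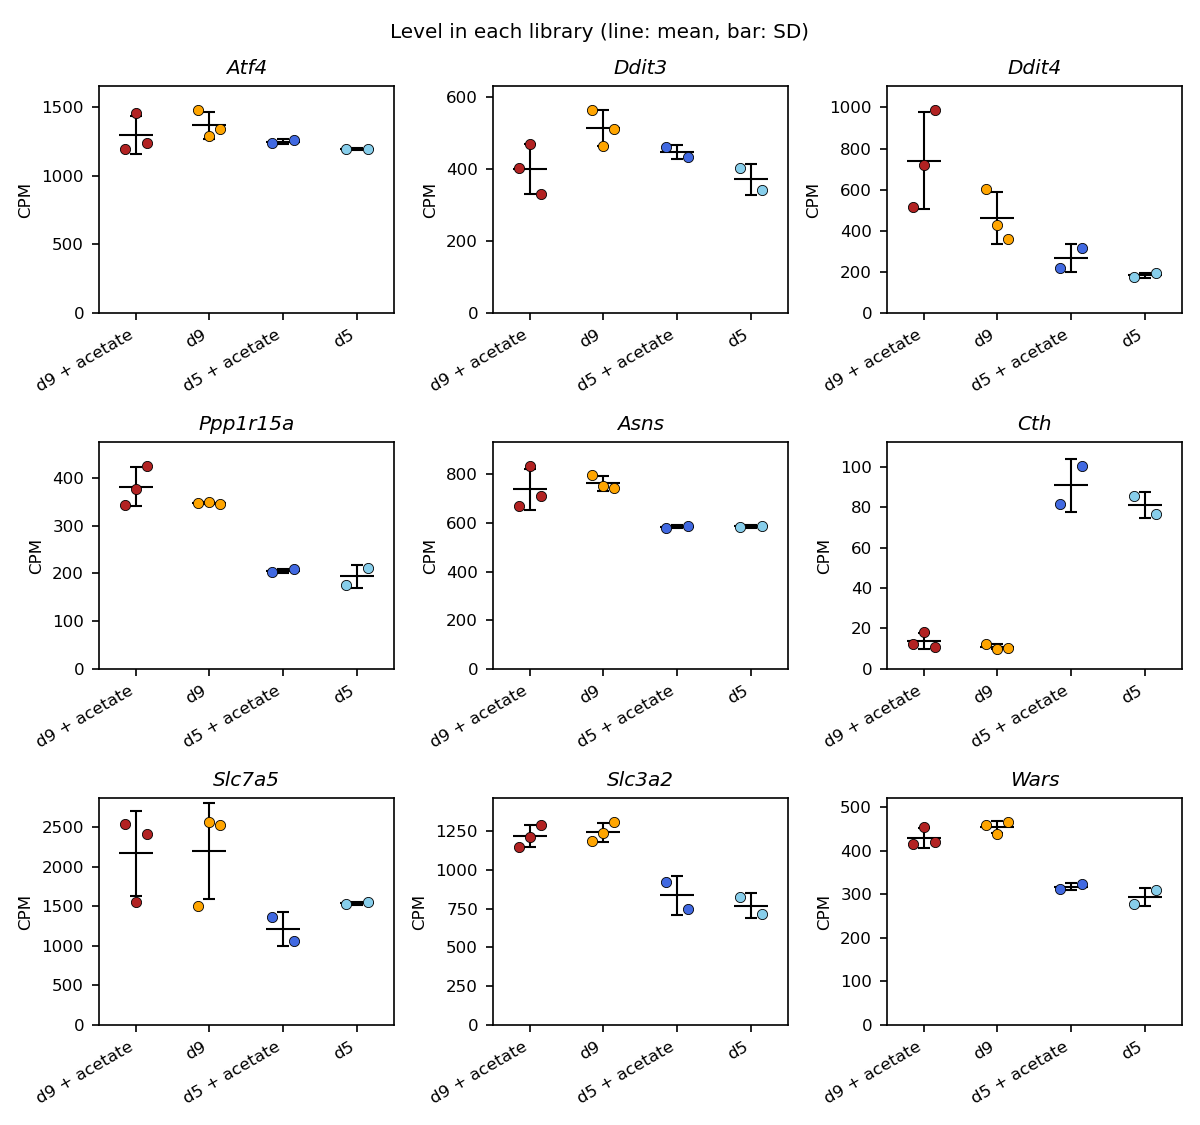
Each panel gives the level of 1 gene in CPM, from 0, with a point for each library, a line for the group mean and a bar for the SD. Groups run from d9 with acetate on the left to d5 without acetate on the right. Cth lies between 10.1 and 18.4 CPM in the 6 d9 libraries and between 76.5 and 100.1 CPM in the 4 d5 libraries, and Slc7a5 has 1 low library in each d9 group.

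The 11 enzymes of amino acid synthesis and one-carbon metabolism moved apart from each other. Of the 10 tested, 5 rose at d9 without acetate, which were Aldh18a1, Asns, Gpt2, Phgdh and Pycr1. With acetate 3 of the 10 rose, Aldh18a1, Asns and Gpt2, and Cth fell in both comparisons. The shares of all tested genes were 15.9% higher and 21.2% lower without acetate, and 18.5% higher and 23.1% lower with it. Cth (ENSMUSG00000028179, chr3:157894248-157925077, minus strand) encodes cystathionine gamma-lyase, which completes the pathway from homocysteine to cysteine. It held 12.4, 18.4 and 11.0 CPM in the d9 acetate libraries and 12.5, 10.1 and 10.4 CPM in the d9 libraries, against 81.6 and 100.1 CPM in the d5 acetate libraries and 85.6 and 76.5 CPM in the d5 libraries. The groups were far apart, at 0.15-fold with acetate (log2 -2.70 ± 0.20; edgeR adjusted p = 1.07e-05) and 0.14-fold without it (log2 -2.88 ± 0.21; edgeR adjusted p = 7.01e-06). The other gene of the same pathway, Cbs, averaged 0.131 CPM in the d9 acetate group and 0.175 CPM in the d9 group (n = 3 each). It was at 0 CPM in both d5 acetate libraries and averaged 0.144 CPM in the d5 group (n = 2). These means rest on 0 to 6 counts per library, too few to compare the groups.

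Asns (ENSMUSG00000029752, chr6:7675169-7693254, minus strand) encodes asparagine synthetase, a standard marker of ATF4 activity. It held 669.8, 832 and 709 CPM in the d9 acetate libraries and 798, 749.5 and 741 CPM in the d9 libraries, against 579 and 587 CPM in the d5 acetate libraries and 582 and 589 CPM in the d5 libraries. The 4 d5 libraries were nearly equal and lay below all 6 d9 libraries, with log2 changes of 0.34 ± 0.12 with acetate (edgeR adjusted p = 0.0422) and 0.38 ± 0.12 without it (edgeR adjusted p = 0.0283). Gpt2, which encodes mitochondrial alanine aminotransferase, held 126, 112 and 119 CPM in the d9 acetate libraries and 104, 113 and 111 CPM in the d9 libraries, against 84.7 and 81.1 CPM in the d5 acetate libraries and 80.2 and 66.1 CPM in the d5 libraries. Again every d9 value was the higher (log2 0.52 ± 0.12 with acetate, edgeR adjusted p = 0.005; 0.58 ± 0.12 without it, adjusted p = 0.00334).

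Aldh18a1 and Pycr1 encode the first and last enzymes of proline synthesis from glutamate. Aldh18a1 held 525, 544 and 587 CPM in the d9 acetate libraries and 511, 579 and 597 CPM in the d9 libraries, against 409.8 and 373 CPM in the d5 acetate libraries and 425 and 427 CPM in the d5 libraries. It rose in both comparisons (log2 0.50 ± 0.12 with acetate, edgeR adjusted p = 0.00628; 0.40 ± 0.11 without it, adjusted p = 0.0196). Pycr1 held 52.3, 52.6 and 42.3 CPM in the d9 acetate libraries and 62.8, 64.1 and 58.4 CPM in the d9 libraries, against 40.0 and 40.4 CPM in the d5 acetate libraries and 45.1 and 39.3 CPM in the d5 libraries. The groups did not overlap in either comparison, and the call was made without acetate (log2 0.55 ± 0.13; edgeR adjusted p = 0.00803) but not with it (log2 0.29 ± 0.13; edgeR adjusted p = 0.1).

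Serine synthesis from glycolytic intermediates runs through Phgdh, Psat1 and Psph, and Phgdh alone of the 3 passed. Phgdh held 967, 1295 and 1042 CPM in the d9 acetate libraries and 1278, 1179 and 1263 CPM in the d9 libraries, against 934 and 955 CPM in the d5 acetate libraries and 894 and 762 CPM in the d5 libraries. Without acetate the d9 libraries were well above d5 (log2 0.58 ± 0.14; edgeR adjusted p = 0.00949), while with acetate the lowest d9 library, at 967 CPM, was close to the higher d5 library, at 955 CPM (log2 0.22 ± 0.14; edgeR adjusted p = 0.234). Psat1 averaged 605 ± 80.1 CPM in the d9 acetate group and 645 ± 62.4 CPM in the d9 group (n = 3 each), against 679 ± 21.2 CPM in the d5 acetate group and 673 ± 40.1 CPM in the d5 group (n = 2 each). Psph averaged 159.8 ± 36.4 and 147 ± 13.9 CPM in the d9 acetate and d9 groups, against 184 ± 14.2 and 156 ± 12.0 CPM in the d5 acetate and d5 groups. Neither passed, and without the 2 libraries that stood apart both fell at d9 with acetate (log2 -0.29 ± 0.09 for Psat1 and -0.41 ± 0.10 for Psph, edgeR adjusted p = 0.0249 and 0.00652). That fit leaves out the highest d9 acetate value of each gene, 698 CPM for Psat1 and 201 CPM for Psph.

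The mitochondrial folate enzymes Shmt2 and Mthfd2, which take the one-carbon unit from serine, did not pass either. Shmt2 averaged 919 ± 34.6 CPM in the d9 acetate group and 1106 ± 135 CPM in the d9 group, against 864 ± 66.3 CPM in the d5 acetate group and 1061 ± 17.4 CPM in the d5 group. Mthfd2 averaged 535 ± 20.4 CPM in the d9 acetate group and 565 ± 8.79 CPM in the d9 group, against 573 ± 18.2 CPM in the d5 acetate group and 632 ± 21.3 CPM in the d5 group. Its values lay lower at d9 in both comparisons (log2 -0.10 ± 0.10 with acetate and -0.16 ± 0.10 without), short of the threshold.

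Calls of the enzyme genes varied in how they held. The call of Cth was kept in both comparisons under every alternative tried, and that of Gpt2 with acetate when each library was left out. Without acetate, leaving out d5 replicate 2 ended the calls of Phgdh (edgeR adjusted p = 0.102), Pycr1 (0.0899) and Gpt2 (0.0525). Asns and Aldh18a1 were lost there without d5 replicates 1 (0.14 and 0.112) or 2 (0.119 and 0.0992), or d9 replicates 2 (0.0648 and 0.0653) or 3 (0.0549 and 0.0677). With acetate Aldh18a1 was lost without d5 acetate replicate 2 (edgeR adjusted p = 0.0691), and Asns without any of 8 libraries (0.0549 to 0.171), that is each one but d9 replicate 1 and d9 acetate replicate 1. With length and GC trends removed, Asns (adjusted p = 0.118), Aldh18a1 (0.12), Phgdh (0.0551) and Pycr1 (0.0914) did not pass without acetate, nor Asns (0.0873) with it. In that fit Mthfd2 and Slc1a5 fell in both comparisons and Shmt2 with acetate. Of all tested genes 21.2% fell without acetate and 23.1% with it in the main fit. Exons of Psph and Shmt2 overlap other genes on the opposite strand.

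Of the 6 amino acid transporters, Slc3a2 rose in both comparisons, Slc7a5 rose with acetate, and the other 4 did not pass. Without acetate 16.7% of the 6 rose, which is the background, as 15.9% of all tested genes rose. With acetate 33.3% rose, against 18.5% of all tested genes. Slc3a2 (ENSMUSG00000010095, chr19:8706882-8723369, minus strand) encodes the CD98 heavy chain, which carries Slc7a5 or Slc7a11 to the surface. It held 1149, 1213 and 1288 CPM in the d9 acetate libraries and 1183, 1238 and 1305 CPM in the d9 libraries, against 924 and 747 CPM in the d5 acetate libraries and 824 and 712 CPM in the d5 libraries. The 6 d9 libraries lay together above d5, including the 2 that stood apart, with log2 changes of 0.54 ± 0.13 with acetate (edgeR adjusted p = 0.00808) and 0.69 ± 0.13 without it (edgeR adjusted p = 0.00243). Slc7a5 (ENSMUSG00000040010, chr8:121881150-121907694, minus strand) encodes LAT1, the transporter of leucine and other large neutral amino acids in activated T cells. It held 2544, 1554 and 2415 CPM in the d9 acetate libraries and 1502, 2564 and 2532 CPM in the d9 libraries, against 1364 and 1064 CPM in the d5 acetate libraries and 1528 and 1554 CPM in the d5 libraries. The low value of each d9 group was that of the library that stood apart, at the level of d5, and the other 4 d9 libraries held 2415 CPM or more. Over all libraries Slc7a5 rose with acetate (log2 0.84 ± 0.26; edgeR adjusted p = 0.0262) and did not pass without it (log2 0.51 ± 0.26; edgeR adjusted p = 0.145). Without those 2 libraries it passed in both, by 1.03 ± 0.11 with acetate and 0.70 ± 0.11 without it on the log2 scale (edgeR adjusted p = 3.7e-05 and 0.00055). Leaving out the lowest d9 values of Slc7a5 makes its change larger by construction, so these calls are no separate support.

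Slc38a2 and Slc7a1, which import small neutral and cationic amino acids, were also lowest at d9 in the 2 libraries that stood apart. Slc38a2 held 287, 155 and 231 CPM in the d9 acetate libraries and 158, 254 and 242 CPM in the d9 libraries, against 220.5 and 209 CPM in the d5 acetate libraries and 273 and 311 CPM in the d5 libraries. Slc7a1 held 555, 402 and 578 CPM in the d9 acetate libraries and 446, 594 and 556 CPM in the d9 libraries, against 473 and 441 CPM in the d5 acetate libraries and 585 and 608 CPM in the d5 libraries. Neither passed, and without the 2 libraries, which held its lowest d9 values, Slc7a1 rose at d9 with acetate (log2 0.31 ± 0.09, edgeR adjusted p = 0.0156). Slc1a5, a glutamine and neutral amino acid transporter gene, averaged 899 ± 66.8 CPM in the d9 acetate group and 892 ± 73.1 CPM in the d9 group, against 923 ± 62.6 CPM in the d5 acetate group and 985 ± 45.5 CPM in the d5 group. Slc7a11, the cystine transporter gene, was low at 5.55 to 15.6 CPM in all 10 libraries, and its groups overlapped in each comparison. The call of Slc3a2 without acetate was kept when each library was left out, and with acetate it was lost without d5 acetate replicate 2 (edgeR adjusted p = 0.101). That of Slc7a5 was lost without d5 acetate replicates 1 or 2 (edgeR adjusted p = 0.0575 and 0.172) or d9 acetate replicates 1 or 3 (0.0778 and 0.0717), and with length and GC trends removed both genes missed the threshold with acetate (0.0806 for Slc3a2 and 0.084 for Slc7a5).

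Of the 5 genes of cytosolic tRNA charging 3 rose without acetate and 3 with it, against 15.9% and 18.5% of all tested genes. Among the 5 genes, Aars and Wars rose in both comparisons, Sars without acetate and Gars with it, and Nars in neither. Their summed level was 3987 ± 158 CPM in the d9 acetate group and 4051 ± 87.9 CPM in the d9 group (SD, n = 3 each), against 3193 ± 28.9 CPM in the d5 acetate group and 3057 ± 10.9 CPM in the d5 group (n = 2 each). Wars (ENSMUSG00000021266, chr12:108860030-108894174, minus strand), which encodes the tryptophan enzyme, held 414, 455 and 418 CPM in the d9 acetate libraries and 458, 439 and 465 CPM in the d9 libraries, against 312 and 323 CPM in the d5 acetate libraries and 278 and 309 CPM in the d5 libraries. Every d9 value was above every d5 value (log2 0.44 ± 0.11 with acetate, edgeR adjusted p = 0.00765; 0.63 ± 0.11 without it, adjusted p = 0.00116). Aars (ENSMUSG00000031960, chr8:111033144-111057664, plus strand), for alanine, held 798, 854 and 873 CPM in the d9 acetate libraries and 862, 913 and 936 CPM in the d9 libraries, against 593 and 584 CPM in the d5 acetate libraries and 651 and 643 CPM in the d5 libraries. Replicates were close and the groups apart (log2 0.52 ± 0.11 with acetate, edgeR adjusted p = 0.00313; 0.48 ± 0.11 without it, adjusted p = 0.00491). Exons of Aars overlap Exosc6 on the same strand over 1326 bases, so its count is uncertain.

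Sars, the serine enzyme gene, held 888, 1152 and 979 CPM in the d9 acetate libraries and 1091, 946 and 1002 CPM in the d9 libraries, against 744 and 824 CPM in the d5 acetate libraries and 709 and 691 CPM in the d5 libraries. Gars, the glycine enzyme gene, held 997, 928 and 1065 CPM in the d9 acetate libraries and 940.3, 1094 and 1139.9 CPM in the d9 libraries, against 781 and 707 CPM in the d5 acetate libraries and 829.8 and 836 CPM in the d5 libraries. For both genes every d9 library was above every d5 library of the same acetate state, and each passed on 1 side of the threshold and narrowly missed on the other. The adjusted p of Sars was 0.0109 without acetate and 0.0519 with it (log2 0.53 ± 0.14 and 0.36 ± 0.13), and that of Gars 0.0204 with acetate and 0.0501 without it (log2 0.42 ± 0.12 and 0.35 ± 0.12). Nars, the asparagine enzyme gene, averaged 713 ± 21.6 CPM in the d9 acetate group and 622 ± 24.9 CPM in the d9 group, against 759 ± 23.3 CPM in the d5 acetate group and 584 ± 19.0 CPM in the d5 group, with log2 changes of -0.09 ± 0.10 with acetate and 0.09 ± 0.10 without it. Aars in both comparisons and Wars without acetate were kept when each library was left out. Sars was lost without d5 replicates 1 or 2 (adjusted p = 0.066 and 0.0778), Wars with acetate without d5 acetate replicate 1 (0.0702), and Gars without d5 acetate replicates 1 or 2 (0.0615 and 0.152) or d9 acetate replicate 3 (0.0654). With length and GC trends removed Aars (0.0891), Wars (0.0721) and Gars (0.0587) did not pass with acetate.

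Acetate changed none of the 33 genes past the threshold at either day by edgeR. At d9 the log2 changes of acetate against no acetate ran from -0.40 for Cebpb to 0.67 for Ddit4, with a median of -0.05, and the lowest adjusted p was 0.182. Over all 13182 genes 4 (0.0303%) passed at d9. At an unadjusted p under 0.05 there were 5 of the 33 genes, Ddit3, Ddit4, Trib3, Shmt2 and Pycr1, and DESeq2 and limma-voom also called 0. Of all 13182 genes 2026 had such a p, which is about the same share. The d9 acetate and d9 libraries did not overlap for Trib3, Shmt2 and Pycr1, which were lower with acetate, and for Nars, which was higher, that is for 4 of 33 genes (12.1%), against 18.7% of all genes. Trib3 averaged 373 ± 6.29 CPM in the d9 acetate group and 469.9 ± 38.4 CPM in the d9 group (SD, n = 3 each; log2 -0.33 ± 0.10; edgeR adjusted p = 0.182). Pycr1 averaged 49.1 ± 5.86 CPM in the d9 acetate group and 61.8 ± 3.00 CPM in the d9 group (log2 -0.33 ± 0.12; edgeR adjusted p = 0.219). Ddit4 averaged 740.1 ± 236 CPM in the d9 acetate group and 464 ± 127 CPM in the d9 group, with overlapping libraries (log2 0.67 ± 0.25; edgeR adjusted p = 0.241). Without the 2 libraries that stood apart 213 of all genes passed and still none of the 33, with the lowest adjusted p at 0.0542 for Trib3.

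At d5 the log2 changes of acetate against no acetate ran from -0.98 for Cebpb to 1.33 for Vldlr, with a median of 0.06, and the lowest adjusted p was 0.0644, that of Vldlr. Over all genes 201 (1.52%) passed. The d5 acetate and d5 libraries did not overlap for 24 of 33 genes (72.7%), against 59% of all genes, with 2 libraries in each group. The 5 genes at an unadjusted p under 0.05 were Vldlr, Nupr1, Stc2 and Nars, higher with acetate, and Cebpb, lower. Of all 13182 genes 2612 had such a p, so the share of the 33 was not above the background. Vldlr averaged 7.90 ± 2.06 CPM in the d5 acetate group and 3.13 ± 0.796 CPM in the d5 group (SD, n = 2 each; log2 1.33 ± 0.31). Nupr1 averaged 60.4 ± 1.54 CPM in the d5 acetate group and 34.1 ± 5.48 CPM in the d5 group (log2 0.83 ± 0.21; edgeR adjusted p = 0.0729). Stc2 averaged 86.1 ± 14.1 CPM in the d5 acetate group and 52.6 ± 5.70 CPM in the d5 group (log2 0.71 ± 0.23; edgeR adjusted p = 0.145). Nars averaged 759 ± 23.3 CPM in the d5 acetate group and 584 ± 19.0 CPM in the d5 group (log2 0.38 ± 0.11; edgeR adjusted p = 0.115). Cebpb averaged 14.9 ± 3.13 CPM in the d5 acetate group and 29.3 ± 4.20 CPM in the d5 group (log2 -0.98 ± 0.31; edgeR adjusted p = 0.129).

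These calls depended on the fit. DESeq2 called Nars, Nupr1 and Vldlr higher (9.09% of the 33) and Cebpb lower (3.03%) at d5, in a test that called 786 of all genes, 3.22% higher and 2.74% lower, and limma-voom called 0. Without the 2 d9 libraries that stood apart, which are in neither d5 group but in the shared estimate of spread, edgeR called Nars, Nupr1, Stc2 and Vldlr higher and Atf5, Cebpb, Slc38a2 and Slc7a1 lower, and 2162 of all genes passed, 7.05% higher and 9.66% lower. Single markers of CD8 T cells and of other cells also passed with acetate at d5, and their part was not tested. Of 8 CD8 T cell markers 1 passed (12.5%), Cd8a, and 5 had positive changes. Of 2 tested NK cell markers Klrb1c passed, while Eomes had a negative change and did not pass. Klrb1c averaged 5.47 CPM in the d5 acetate group and 1.5 CPM in the d5 group. Cd79b averaged 3.29 CPM in the d5 acetate group and 1.05 CPM in the d5 group, and Cd8a averaged 560.3 CPM in the d5 acetate group and 333 CPM in the d5 group. Klrb1c, Cd79b and Cd8a were higher with acetate by edgeR. Cd68, a macrophage marker, averaged 4.48 CPM in the d5 acetate group and 10.3 CPM in the d5 group and was lower. Atf4 itself had log2 changes with acetate of -0.08 ± 0.11 at d9 and 0.06 ± 0.14 at d5.

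**Figure D4:**
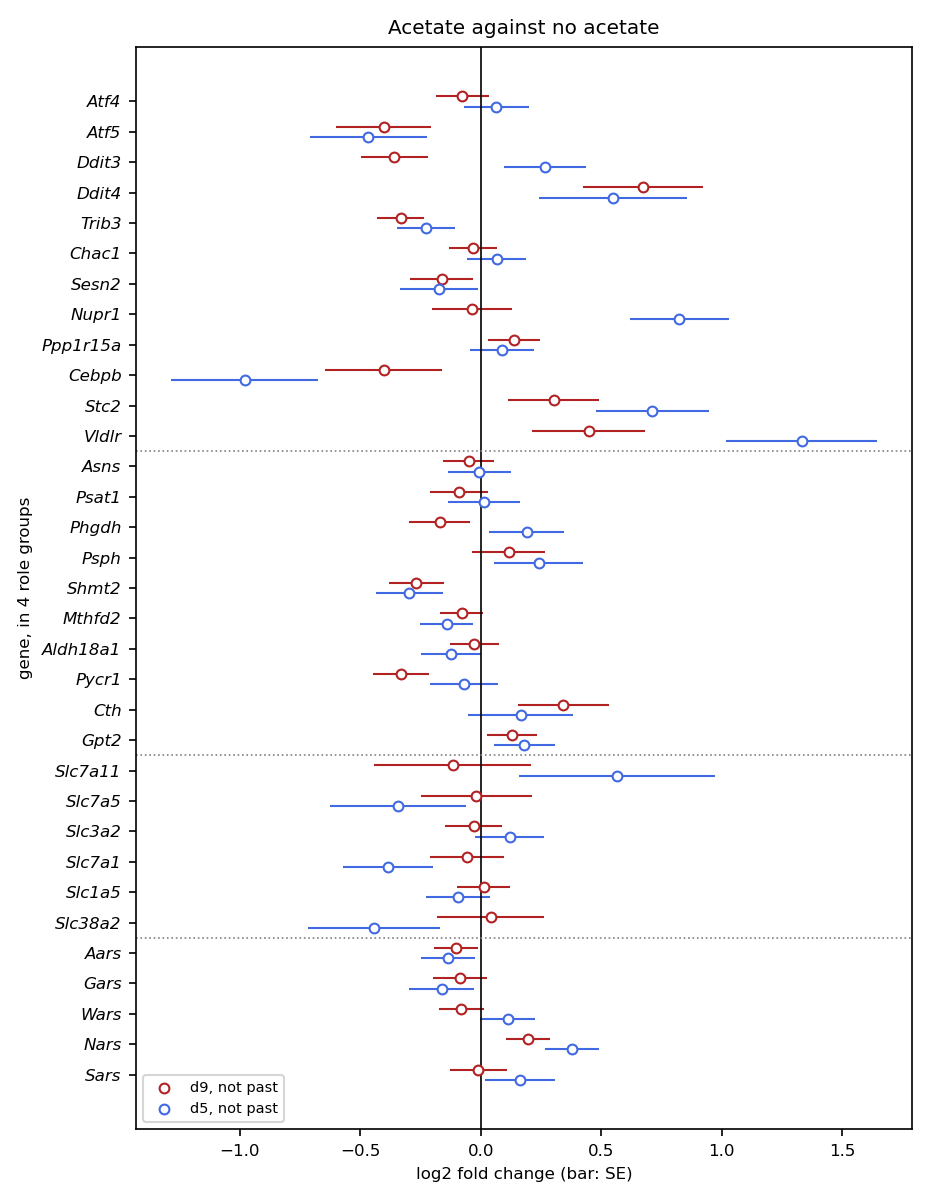
Points are log2 fold changes of acetate against no acetate for the 33 tested genes, with bars for the SE. Red points are d9 and blue points d5, and open points are not past an adjusted p of 0.05. All points are open, and the widest spread from 0 is that of Vldlr and Cebpb at d5, at 1.33 and -0.98.

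The difference between the acetate effect at d9 and that at d5 passed for none of the 33 genes, as for 0% of all 13182, by edgeR. At an unadjusted p under 0.05 there were 3 genes, Ddit3, Nupr1 and Vldlr, and DESeq2 and limma-voom called 0. Of all 13182 genes 1015 had such a p, which is near the same share. Ddit3 had a log2 change with acetate of -0.36 ± 0.14 at d9 and 0.27 ± 0.17 at d5, a difference of -0.63 ± 0.22 (edgeR adjusted p = 0.522). Nupr1 had -0.04 ± 0.17 at d9 and 0.83 ± 0.21 at d5, a difference of -0.86 ± 0.26 (edgeR adjusted p = 0.432). Vldlr had 0.45 ± 0.23 at d9 and 1.33 ± 0.31 at d5, a difference of -0.88 ± 0.39 (edgeR adjusted p = 0.637). With SEs of 0.14 to 0.52 for this difference, a p that misses the threshold does not show equal effects.

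Other genes of the pathway were counted from lists drawn up beside the 34 genes. Their counts for d9 against d5 are to be read against all tested genes, of which 15.9% rose and 21.2% fell without acetate and 18.5% rose and 23.1% fell with it. Of 14 genes of eIF2 phosphorylation and initiation control, 1 rose and 1 fell without acetate (7.14% each), and 3 rose and 3 fell with it (21.4% each), below or near those shares. Eif2ak3, which encodes the eIF2 kinase PERK, averaged 111 ± 18.4 CPM in the d9 acetate group and 93.8 ± 5.37 CPM in the d9 group (SD, n = 3 each), against 38.7 ± 5.31 CPM in the d5 acetate group and 44.1 ± 0.779 CPM in the d5 group (n = 2 each; log2 1.51 ± 0.16 with acetate and 1.09 ± 0.16 without). Dnajc3, which encodes an inhibitor of that kinase family, averaged 59.4 ± 8.89 CPM in the d9 acetate group and 62.6 ± 5.95 CPM in the d9 group, against 164.5 ± 28.1 CPM in the d5 acetate group and 115 ± 12.5 CPM in the d5 group. Both passed in both comparisons, the first higher and the second lower. Of 13 tested among 16 other ATF4 partners and targets, the same 6 genes (46.2%) rose and the same 1 (7.69%) fell in both comparisons. Sqstm1, which encodes the autophagy receptor p62, averaged 2969 ± 261 CPM in the d9 acetate group and 3608 ± 35.8 CPM in the d9 group, against 1173 ± 39.0 CPM in the d5 acetate group and 1353 ± 62.7 CPM in the d5 group. Bbc3, which encodes the death factor PUMA, averaged 79.1 ± 3.39 CPM in the d9 acetate group and 94.4 ± 2.62 CPM in the d9 group, against 55.8 ± 4.04 CPM in the d5 acetate group and 47.0 ± 1.31 CPM in the d5 group.

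Of 15 other cytosolic tRNA synthetase genes, 2 (13.3%) rose and none fell without acetate, Cars and Kars, and 3 (20%) rose and 1 (6.67%) fell with it, so the share that rose was about that of all genes. Of 17 mitochondrial synthetase genes, 1 (5.88%) rose and 3 (17.6%) fell without acetate and none rose and 6 (35.3%) fell with it. Lars2 of this list ranged from 95.8 to 379 CPM over the 6 d9 libraries and from 292 to 5591 CPM over the 4 d5 libraries. Among 12 tested of 13 other amino acid transporter genes, 1 rose (8.33%) and 3 fell (25.0%) without acetate and 4 rose and 4 fell (33.3% each) with it, with Slc6a9, a glycine transporter gene, higher in both (log2 0.78 ± 0.17 without acetate and 0.50 ± 0.17 with it). Of 24 other amino acid and one-carbon enzyme genes, 3 rose (12.5%) and 6 fell (25.0%) without acetate and 3 rose (12.5%) and 7 fell (29.2%) with it, near the shares of all genes. Tyms, the thymidylate synthase gene whose reaction uses the one-carbon unit, averaged 27.9 ± 5.09 CPM in the d9 acetate group and 29.0 ± 6.34 CPM in the d9 group, against 65.0 ± 0.619 CPM in the d5 acetate group and 71.7 ± 2.42 CPM in the d5 group, and was lower in both comparisons (log2 -1.22 ± 0.19 with acetate and -1.31 ± 0.19 without it). Of 12 genes through which amino acids act on mTORC1, 3 rose (25.0%) and 1 fell (8.33%) without acetate and 7 rose (58.3%) and 1 fell (8.33%) with it, among the risen Sesn1 and Flcn in both. No gene of these lists passed for acetate at d9 or d5, or for the difference of the acetate effects.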

How the data were processed

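Polyadenylated RNA of mouse CD8 T cells was sequenced from stranded mRNA libraries, per the labels' protocols. The authors deposited a file of unnormalised counts by gene for each sample. The submitters' processing notes name deepTools, STAR, featureCounts, DESeq2 and GRCm38. Tool versions and the use of strand are not stated there. Of 53465 genes 53360 were matched to GENCODE M21 for symbols, coordinates and exon lengths, and promoters came from RefSeq. The 10 samples formed 4 groups by their labels. With R 4.3.3 and edgeR 4.0.16, filterByExpr left 13182 genes and TMM gave the scaling. On all 10 samples a mean per group was fitted by the robust quasi-likelihood model (6 residual degrees of freedom, biological coefficient of variation 0.161), and 5 comparisons were adjusted by Benjamini-Hochberg over all tested genes at 0.05. The SE was taken as the size of the log2 change over the root of its F statistic. Total counts were 16.59 to 24.66 M per sample, and replicates differed by more than sampling noise (chi-square 6.01 to 76.6 per degree of freedom).

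The genes, lists and alternatives were chosen with earlier results of these data known. Members past the threshold, Atf4 and Ddit3 are given by library, others by group means or ranges (Slc38a2 and Slc7a1 also by library, a choice made after their values were seen), and of each other list at most 4 past the threshold with the smallest p are named; the values of some genes that this rule names are not reported here. Alternatives were DESeq2 1.42.0 size factors and Wald test, limma-voom (limma 3.58.1), library size only, no filter, a filter of 2 CPM in 2 samples, blocks for replicate number, removed length and GC trends, fits on the compared libraries, and leaving out libraries. The scripts were tested on simulated data. A test for outlying samples needs groups of at least 4 and was not applied.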

Additional observations from a re-analysis of the deposited data

How the results depend on the processing

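Over 21 alternatives per comparison of 2 groups and 20 for the difference, no call of the 33 genes turned its direction, and Cth and Ppp1r15a were called in both comparisons of d9 with d5 under each. For d9 against d5 without acetate the 18 genes higher became 7 to 20 when 1 library was left out, with 11 without d5 replicate 1 and 7 without d5 replicate 2 (33.3% and 21.2% of the 33, against 8.54% and 7.67% of all genes), and for d9 against d5 with acetate the 14 became 6 to 17, with 7 without d5 acetate replicate 1 and 6 without replicate 2 (21.2% and 18.2%, against 9.48% and 9.73% of all genes). Those fits leave 1 library in a group, assumed to vary like the others. With length and GC trends removed 12 genes were higher and 3 lower without acetate (36.4% higher, against 18.1% of all genes). In that comparison 4568 of all genes passed, 2386 of them higher and the rest lower. With acetate 6 were higher and 4 lower (18.2% higher, against 18.5% of all genes, so no excess remained there). The share of all genes lower with acetate in that fit is not given here, so the 4 cannot be set against a background. The single gene lower with acetate became 1 to 2 with 1 library left out (2 without d9 acetate replicate 2) and 3 without d9 replicate 1 and d9 acetate replicate 2 together. Library size alone shifted the median of all genes by -0.10 for both comparisons of d9 with d5 and left 13 and 10 genes higher without and with acetate (39.4% and 30.3%, against 11.7% and 13.7% of all genes). For acetate at d5, where 0 genes were called by edgeR, the counts higher and lower were 3 and 0 without a filter (1.21% and 1.28% of all genes), 3 and 1 by the DESeq2 Wald test (3.22% and 2.74%), and 3 and 4 in a fit on the d5 libraries only (5.47% and 8.45%). They were 0 to 2 and 0 to 1 with 1 library left out (2 and 1 without d9 replicate 1), and 4 and 4 without both d9 libraries that stood apart (7.05% and 9.66% of all genes). Acetate at d9 and the difference of the acetate effects gave 0 calls of these genes under each alternative tried, edgeR, DESeq2 and limma-voom included. The correlation of deviations between same-numbered libraries was 0.0293 at d5 and -0.139, -0.392 and 0.329 at d9, which showed no common pairing by replicate number. The highest at d9, 0.509, was that of the 2 libraries that stood apart, which differ in number. With 2 libraries in a d5 group the deviations mirror each other, so these few values cannot decide whether same-numbered libraries share a source. A replicate block gave 14 and 10 genes higher at d9 without and with acetate (42.4% and 30.3%, against 13.4% and 14.4% of all genes). A replicate block within day gave 4 and 1 (12.1% and 3.03%, against 5.93% and 6.46% of all genes). That fit took replicate 1 of each day as the reference, so it compared the days at the level of replicate 1 and not by their means. Replicate 1 of the d9 group is 1 of the libraries that stood apart. The 4 and 1 are therefore not counts for the day means adjusted for a block. Cth alone was lower with either block, and 0 genes passed for acetate. Groups of 2 or 3 libraries limit what could pass. The causes of these changes were not tested.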

Other observations

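The ratios below were chosen after the values were seen and were not tested. Slc7a5 and Slc3a2 encode the 2 chains of 1 transporter. The ratio of their CPM was 2.21, 1.28 and 1.88 in the d9 acetate libraries and 1.27, 2.07 and 1.94 in the d9 libraries, against 1.48 and 1.42 in the d5 acetate libraries and 1.85 and 2.18 in the d5 libraries. The 2 d9 libraries with more counts on ribosomal protein genes had the lowest ratios of the 10. Phgdh and Psat1 encode consecutive enzymes of serine synthesis. The ratio of Psat1 to Phgdh CPM was 0.585, 0.539 and 0.530 in the d9 acetate libraries and 0.560, 0.507 and 0.492 in the d9 libraries, against 0.711 and 0.727 in the d5 acetate libraries and 0.784 and 0.846 in the d5 libraries. Every d9 library lay below every d5 library on this ratio, while Psat1 itself passed in neither comparison of d9 with d5 over all libraries.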
